A study of Mus musculus with 10 samples.

Results

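The genes described here are 33 genes that accompany the maturation of monocytes and macrophages, of which 32 could be measured among 18193 genes on Affymetrix mouse expression arrays. They were chosen by their known roles, and with earlier results of these data known. Each was represented by its brightest probe set, with the highest mean log2 intensity over all 10 arrays. A probe set is a group of array probes for 1 transcript, and only those with a single gene symbol were used. Ly6c1 has no value here, because its only named probe set is shared with Ly6c2. Adgre4 is listed under its older name Emr4 in some annotations.

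The RNA came from murine Mll-AF9 leukaemia cells, line 4166, which carry a fusion of the histone methyltransferase gene Mll with AF9 and are grown with interleukin 3. The control cells (n = 5 arrays) were infected with an empty lentiviral vector, and the others (n = 5 arrays) with a virus encoding an shRNA, a hairpin-shaped RNA that silences its target, directed at Meis1. Both groups were selected with puromycin and compared 48 h after infection, in medium holding 2 ng/ml interleukin 3 and 15% fetal bovine serum. All arrays stem from a single leukaemia line, and the control virus held no hairpin. The labels pair control and shRNA samples by number but do not say whether the 5 pairs were separate cultures, and the spread behind each p-value may therefore be only technical.

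Monocytes arise from granulocyte-monocyte progenitors, leave the marrow under the control of chemokine receptors such as Ccr2, and in tissues become macrophages that take up debris, lipids and microbes through scavenger and lectin receptors. Lysozymes, adhesion receptors, matrix proteins and complement C1q mark successive steps of this course. Mll-AF9 holds cells at a progenitor stage, and Meis1, a TALE homeodomain transcription factor, acts with Hoxa9 to maintain that state. Meis1 itself read 346 ± 56.3 in the control arrays and 165 ± 40.2 with the shRNA (intensity, SD, n = 5), 2.13-fold lower (log2 change -1.09, SE 0.08, limma adjusted p = 0.000636), and was lower in all 5 pairs.

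With the shRNA, 7 of the 32 measured maturation genes rose and 0 fell by limma with the pairs as a block (adjusted p under 0.05), while 25 did not pass. The 7 were the lysozymes Lyz1 and Lyz2, the lectins Lgals3 and Clec4d, the macrophage receptor Adgre1, the cross-linking enzyme Tgm2 and the matrix protein Thbs1. The signals of Lyz1 and Lyz2 may not be separate, as described below. The 7 were 21.9% of the measured members, a list chosen with earlier results of these data known. Of all genes tested, 1.08% rose, 2.98% fell and 4.06% passed in either direction. At an unadjusted p under 0.05, 8 members were higher and 3 lower, beside 6.9% of all genes higher and 11.1% lower (18% in all). The median log2 change of the 32 genes was 0.07, beside 0.004 over all genes tested. Of the members, 15 had a mean log2 level under 3 and changed by -0.10 to 0.26. Of the 7, Lgals3 alone passed whichever pair was left out. The other 6 passed with pair 5 left out but missed the threshold when any of pairs 1 to 4 was (highest adjusted p 0.155), and also in a fit without the block (adjusted p 0.246 to 0.488).

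**Figure D1:**
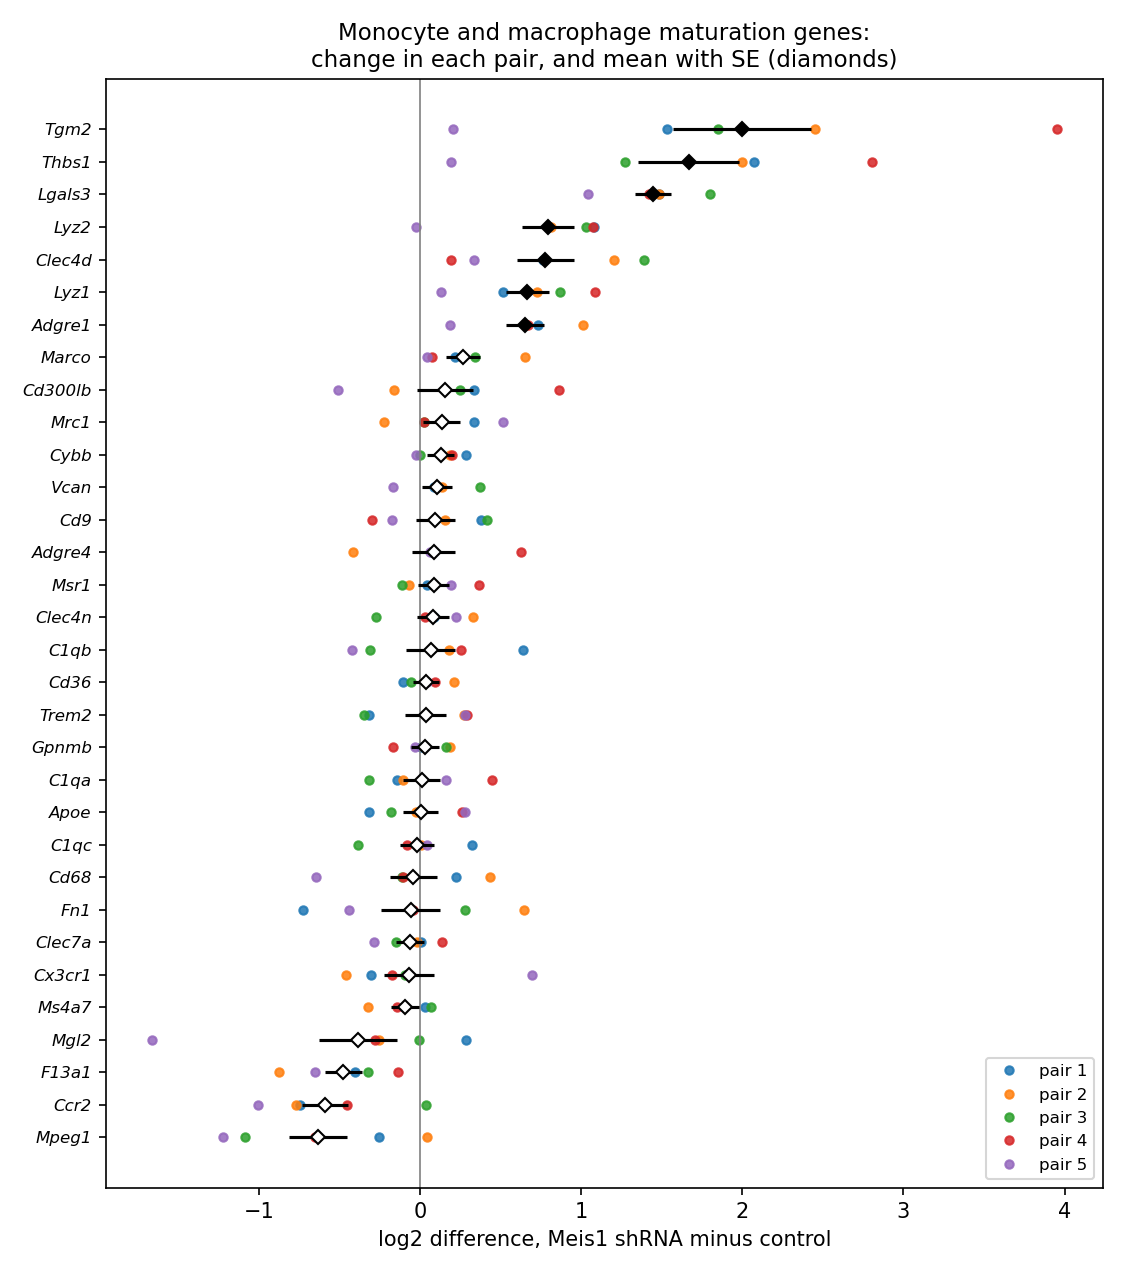
Log2 difference between the Meis1 shRNA array and its control array for each of the 32 genes (y axis), with 1 coloured point for each of the 5 pairs and a diamond for the mean with its SE. Filled diamonds mark the 7 genes past the threshold, and the points of pair 5 lie closest to 0 for 6 of them; Mpeg1, Ccr2, F13a1 and Mgl2 lie lowest, from -0.64 to -0.38.

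Among the antimicrobial and effector genes, the chosen probe sets of both lysozymes rose. Lysozyme cleaves bacterial cell walls, and Lyz2 is the form that macrophages use while Lyz1 is best known from Paneth cells of the gut. Lyz2 (Entrez gene 17105, chromosome 10) read 98.17, 122.5, 206.4, 200.6 and 652.5 in control arrays 1 to 5 and 207.2, 214.9, 420.7, 421.2 and 639.5 in their shRNA partners. The shRNA array was higher in pairs 1 to 4 and about level in pair 5, whose control exceeded every other array, so the groups overlapped. The log2 means were 7.65 ± 1.06 and 8.44 ± 0.70 (SD, n = 5), a change of 0.79 (SE 0.16, limma adjusted p = 0.0349), or 1.73-fold.

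Lyz1 (Entrez gene 17110, chromosome 10) read 293.6, 307.6, 466.3, 443.7 and 1182 in the controls and 418.9, 508.1, 851.7, 943.1 and 1290 with the shRNA. It was higher with the shRNA in all 5 pairs, least in pair 5, and the groups overlapped because control 5 lay above 4 of the 5 shRNA arrays. The change was 0.66 (SE 0.13, limma adjusted p = 0.0331), or 1.58-fold. A second Lyz1 probe set changed by 0.62 (adjusted p = 0.0525 over all probe sets) and the remaining probe set, dim at a control log2 level of 2.10, by 0.08. Both brighter Lyz1 probe sets are of the class that can bind related transcripts, so Lyz1 and Lyz2 signals may not be separate. The dim probe set is the only Lyz1 probe set not of that class, so a rise of Lyz1 apart from Lyz2 is not shown here.

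The starts of the lysozyme genes lie 10596 bases apart on the same strand. Their promoters are shown because the measured signals moved together and the sequences are so alike. Of 252 aligned positions in the 250 bases before each start, 200 were identical (79.4%). The sequences are from RefSeq (build GRCm38.p6), written in the direction of the gene, for chr10:117282273-117282522 (Lyz2) and chr10:117292869-117293118 (Lyz1), both on the minus strand.
Lyz2: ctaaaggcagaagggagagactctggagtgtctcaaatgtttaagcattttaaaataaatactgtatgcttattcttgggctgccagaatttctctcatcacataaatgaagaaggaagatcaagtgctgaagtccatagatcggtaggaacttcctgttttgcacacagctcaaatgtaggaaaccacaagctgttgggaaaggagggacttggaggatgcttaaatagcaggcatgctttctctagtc
Lyz1: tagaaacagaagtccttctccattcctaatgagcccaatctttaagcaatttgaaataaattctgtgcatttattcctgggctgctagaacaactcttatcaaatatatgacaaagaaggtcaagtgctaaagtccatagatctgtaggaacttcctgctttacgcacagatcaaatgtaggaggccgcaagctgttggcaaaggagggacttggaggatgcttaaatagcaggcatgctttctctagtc
No capitals appear, since neither of the 2 motifs searched (given with Lgals3) is in these letters.

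Mpeg1, which encodes the pore-forming protein perforin-2 of macrophages, did not share the direction of the lysozymes. Mpeg1 (Entrez gene 17476, chromosome 19) read 145.7, 141.4, 26.03, 28.15 and 181.4 in the controls and 122.2, 145.8, 12.23, 17.88 and 77.75 with the shRNA. Pairs 3 and 4 lay far below pairs 1 and 2 in both groups, and the shRNA array was the lower in 4 of 5 pairs. The change of -0.64 (SE 0.18, 95% interval -1.05 to -0.22) did not pass (limma adjusted p = 0.101). It passed with trend and robust eBayes (adjusted p = 0.0273), but in no other setting tried (0.0525 to 0.792). Cybb, the catalytic subunit of the phagocyte NADPH oxidase, was dim on every array and changed by 0.13, with pair differences from -0.03 to 0.28.

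Lgals3 showed the steadiest shift among the secreted lectin and matrix genes. It encodes galectin-3, a lectin of macrophages that binds galactosides. Lgals3 (Entrez gene 16854, chromosome 14) read 584.2, 576.2, 392.8, 544.6 and 450.8 in the controls and 1635, 1608, 1364, 1458 and 926.9 with the shRNA. Every shRNA array lay above every control, the only such case among the 32 genes (3.12%), while 1.53% of all genes had groups apart in that direction, 3.45% in the other and 4.98% in either. The log2 means were 8.98 ± 0.25 and 10.42 ± 0.33 (SD, n = 5), a change of 1.44 (SE 0.11, limma adjusted p = 0.000626), 2.72-fold higher. The pair differences were 1.48, 1.48, 1.80, 1.42 and 1.04.

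The Lgals3 promoter is shown because this gene held its change in every pair. Motifs were searched on both strands in the 250 bases before each start: the MEIS core TGACAG (reverse CTGTCA) and the PU.1 core GAGGAA (reverse TTCCTC), whose matches can overlap only by an end letter. Capitals mark matches, in chr14:47373610-47373859 (GRCm38.p6, plus strand, RefSeq).
Lgals3: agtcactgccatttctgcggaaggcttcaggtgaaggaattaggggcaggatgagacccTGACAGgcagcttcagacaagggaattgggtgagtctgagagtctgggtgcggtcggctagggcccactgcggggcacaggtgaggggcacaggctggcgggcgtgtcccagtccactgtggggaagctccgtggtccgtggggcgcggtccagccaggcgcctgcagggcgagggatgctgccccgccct
The MEIS core was in 15.9% of all 32851 RefSeq promoter windows and in 4 of 30 windows of the maturation genes (13.3%), those of Lgals3, F13a1, Mgl2 and Mrc1. The PU.1 core was in 23.3% of all windows and in 13 of the 30 (43.3%). The 30 windows belonged to 25 of the 32 measured genes. A match describes letters and is not a bound site.

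Tgm2, tissue transglutaminase, cross-links proteins and is abundant in macrophages, and Thbs1 encodes thrombospondin-1, an adhesive matrix glycoprotein made by monocytes. Tgm2 (Entrez gene 21817, chromosome 2) read 6.952, 7.85, 83.03, 22.18 and 154 in the controls and 20.09, 42.88, 299.2, 343.8 and 177.6 with the shRNA. Each shRNA array exceeded its partner, yet the groups overlapped widely, and controls 1 and 2 were dim (log2 2.80 and 2.97), so that no fold is given. The log2 change was 2.00 (SE 0.43, limma adjusted p = 0.0396), with pair differences from 0.21 in pair 5 to 3.95 in pair 4. Of its 5 other probe sets, 3 changed by 1.32 to 1.79 and the 2 dimmest by 0.37 and 0.05, none past the threshold over all probe sets. The brightest Tgm2 probe set is, as for Lyz1, of the class that can bind related transcripts, whereas those that changed by 1.32 and 0.37 are not.

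Thbs1 (Entrez gene 21825, chromosome 2) read 23.37, 24.28, 280.5, 109 and 576 in the controls and 98.19, 97, 677.4, 761.6 and 656.6 with the shRNA. The control arrays alone spanned a 24.6-fold range, wider than the 3.18-fold difference between the groups, and the 2 shRNA arrays of pairs 1 and 2 lay below controls 3, 4 and 5. The change was 1.67 (SE 0.31, limma adjusted p = 0.0246). The other Thbs1 probe set moved alike (1.72, SE 0.27, adjusted p = 0.014 over all probe sets). With eBayes set to trend and robust, Tgm2 (adjusted p = 0.118) and Thbs1 (0.0774) did not pass.

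**Figure D2:**
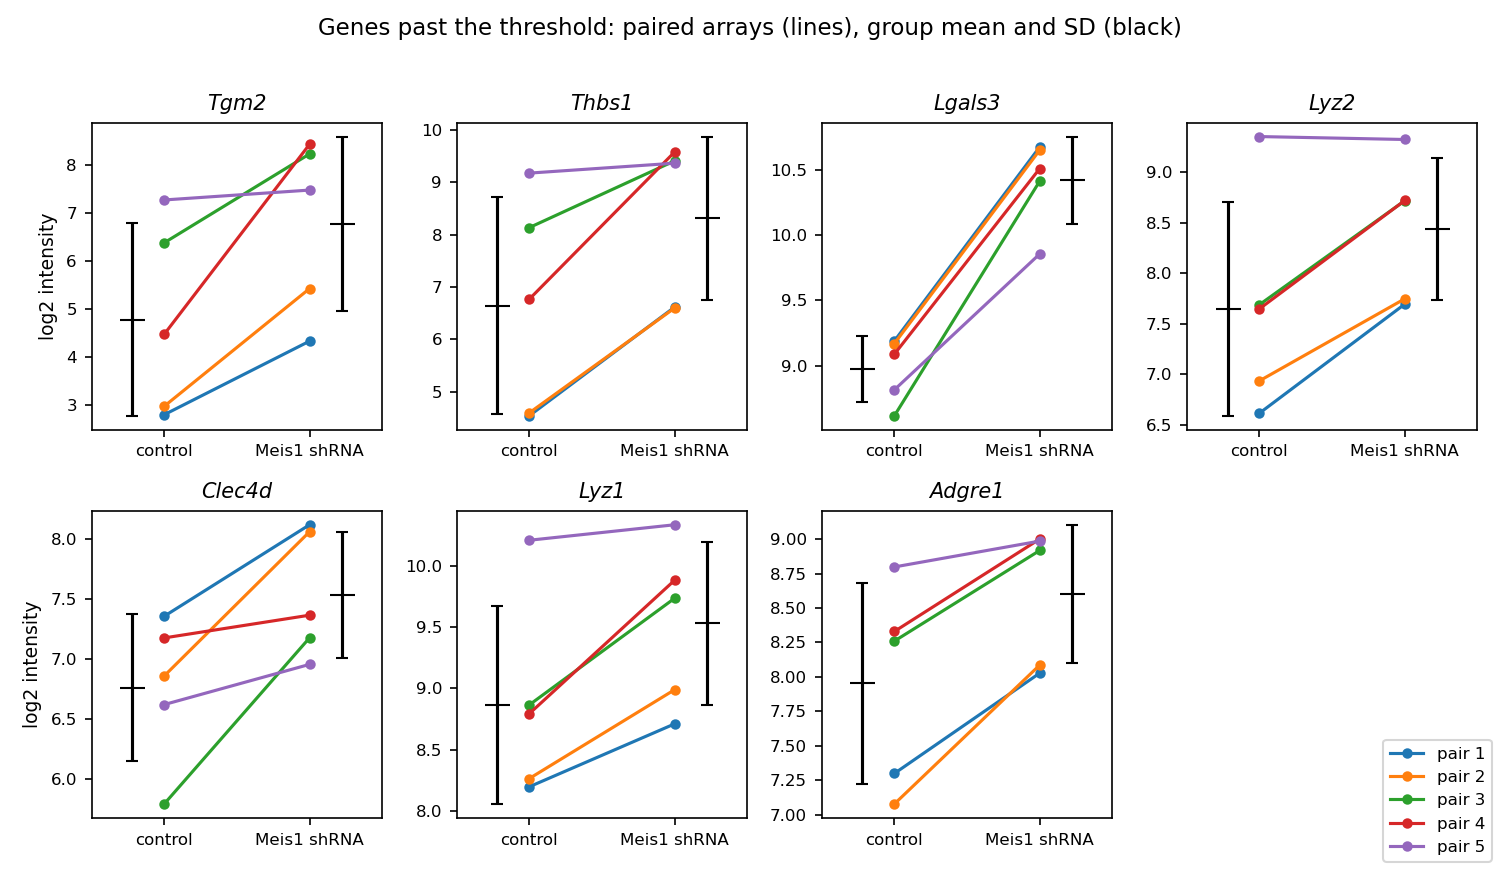
Log2 intensity of the 7 genes past the threshold in each control array and its Meis1 shRNA partner, joined by a line for each pair, with the group mean and SD in black (n = 5). The slopes are steep in Lgals3 for all pairs, whereas the line of pair 5 is nearly flat in Tgm2, Thbs1, Lyz2, Lyz1 and Adgre1 and starts at or above the other controls.

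F13a1, the A subunit of coagulation factor XIII and, like Tgm2, a transglutaminase, lay on the other side of 0. F13a1 (Entrez gene 74145, chromosome 13) read 77.83, 67.66, 242, 169.4 and 672 in the controls and 58.9, 36.88, 193.7, 154 and 428.2 with the shRNA. It was the single maturation gene lower in all 5 pairs, by 0.14 to 0.88 on the log2 scale. The change of -0.48 (SE 0.11, 95% interval -0.74 to -0.21) missed the threshold (limma adjusted p = 0.0600). It passed with the arrays centred on their medians (adjusted p = 0.0423), among genes with a mean log2 level above 5 (0.0252) and with trend and robust eBayes (0.0150). It also passed where probe sets were averaged (0.0405), although F13a1 has only 1 probe set, so its own values were the same. It did not pass without the block (adjusted p = 0.834), with the block as random (0.763) or with quantile normalization (0.115). With any pair left out it also missed the threshold (0.0854 to 0.150).

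Its upstream promoter window is shown because it held 3 MEIS cores, the most among the windows matched, and 1 PU.1 core (chr13:37050245-37050494, GRCm38.p6, minus strand, RefSeq, written in the direction of the gene, with matches in capitals).
F13a1: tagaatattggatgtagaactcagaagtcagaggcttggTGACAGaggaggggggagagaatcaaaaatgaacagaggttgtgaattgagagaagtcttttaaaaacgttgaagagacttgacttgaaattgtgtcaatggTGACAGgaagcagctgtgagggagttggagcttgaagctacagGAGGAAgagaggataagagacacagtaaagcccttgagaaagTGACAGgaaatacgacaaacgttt
A second F13a1 window in the same table held neither motif. The remaining matrix genes, fibronectin (Fn1) and the proteoglycan versican (Vcan), were dim, with changes of -0.06 (adjusted p = 0.916) and 0.11 (adjusted p = 0.632).

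Of 9 scavenger and lectin receptors, 1 rose and 8 did not pass. Clec4d is a C-type lectin of monocytes that binds mycobacterial glycolipids. Clec4d (Entrez gene 17474, chromosome 6) read 163.7, 115.9, 55.26, 144.4 and 98.2 in the controls and 277.9, 266.9, 144.5, 164.7 and 123.9 with the shRNA. All 5 pairs were higher with the shRNA, by 0.19 (pair 4) to 1.39 (pair 3), and the groups overlapped. The change was 0.78 (SE 0.18, limma adjusted p = 0.0497, and 0.0559 with median centring), 1.71-fold, from a probe set of the class that matches more than a single transcript.

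Cd68, a lysosomal glycoprotein of macrophages that was bright on all arrays (274.5 to 493.9), changed by -0.04 (95% interval -0.37 to 0.29, adjusted p = 0.927). Its pair differences had both signs, from 0.43 in pair 2 to -0.65 in pair 5. Mgl2, a galactose-binding lectin of dermal and alternatively activated macrophages, was low in pairs 1 to 4 (6.797 to 15.64) and read 262.2 in control 5 and 82.6 in shRNA 5. Its change of -0.38 (SE 0.24, adjusted p = 0.475) rested on pair 5, and was -0.06 without it. The scavenger receptors Msr1, Marco and Cd36, the mannose receptor Mrc1 and the beta-glucan and mannan receptors Clec7a and Clec4n were dim, with changes between -0.06 and 0.26. The largest of these was Marco (0.26, adjusted p = 0.229), higher in all 5 pairs by up to 0.65, while its other probe set was lower in all 5 (-0.17).

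Among the chemokine receptors and other surface proteins, 1 of 7 rose. Adgre1 (Entrez gene 13733, chromosome 17), an adhesion receptor used to recognise mouse macrophages, read 157.5, 135.1, 306.5, 321.7 and 445 in the controls and 260.9, 271.7, 483.5, 512.2 and 506.9 with the shRNA. It was higher in all 5 pairs, again least in pair 5, and the groups overlapped since shRNA 1 and 2 lay below controls 3, 4 and 5. The change was 0.65 (SE 0.12, limma adjusted p = 0.0207), 1.57-fold. Its relative Adgre4 was dim (0.08, adjusted p = 0.819).

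Ccr2, the receptor through which inflammatory monocytes leave the marrow, was lower with the shRNA in 4 of 5 pairs. Ccr2 (Entrez gene 12772, chromosome 9) read 22, 21.83, 13.24, 14.98 and 47.88 in the controls and 13.09, 12.82, 13.57, 10.92 and 23.83 with the shRNA. The values were low and overlapped, with pair 5 highest in both groups. The change of -0.59 (SE 0.14, 95% interval -0.92 to -0.26) did not pass (limma adjusted p = 0.0613), but did without pair 3 (-0.74, adjusted p = 0.0254), with median centring (0.0466) and with trend and robust eBayes (0.0325). It did not pass with any other pair left out (0.106 to 0.179), without the block (0.428) or with the block as random (0.301). Quantile normalization (0.0862) and the mean of probe sets (-0.31, adjusted p = 0.0567) also left it short of the threshold. The other 3 Ccr2 probe sets changed by -0.33, -0.32 and -0.01. Cx3cr1, the fractalkine receptor of patrolling monocytes, was lower in 4 of 5 pairs and changed by -0.07 (adjusted p = 0.878). Pair differences of both signs were seen in Cd300lb, an activating receptor of myeloid cells (0.15, 95% interval -0.25 to 0.56). The same held for the tetraspanin Cd9 (0.09, 95% interval -0.19 to 0.38) and for Ms4a7 (-0.10, adjusted p = 0.648), which was dim.

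**Figure D3:**
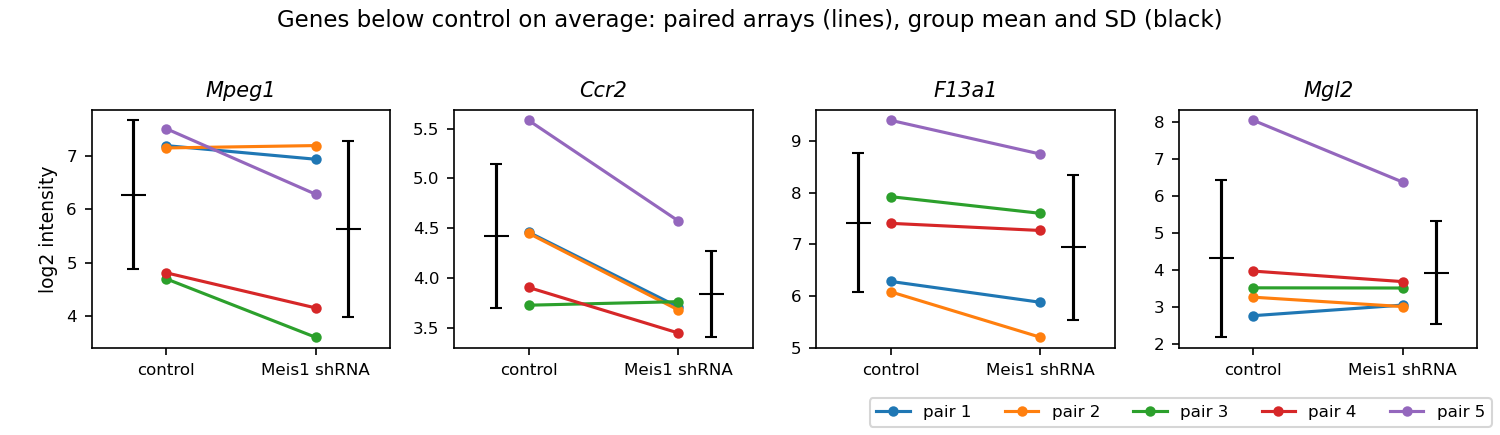
Log2 intensity of Mpeg1, Ccr2, F13a1 and Mgl2, the maturation genes with mean changes below -0.3 (a limit set after the values were seen), in each control array and its Meis1 shRNA partner, with group means and SD in black (n = 5). The F13a1 lines all fall; Ccr2 falls in all but pair 3, Mpeg1 in all but pair 2, and the fall of Mgl2 is deep in pair 5 alone.

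The 6 complement and lipid genes of tissue macrophages gave no call in either direction, and none had an unadjusted p under 0.05 by limma. They were C1qa, C1qb and C1qc, the chains of complement C1q, the lipid carrier Apoe, the lipid-sensing receptor Trem2 and the lysosomal glycoprotein Gpnmb. Their changes lay between -0.02 and 0.07 and the adjusted p between 0.880 and 0.992. Their levels were at the bottom of the scale: no array read above 3.82 on the log2 scale, and C1qa, C1qc and Apoe had control means of 1.61, 1.40 and 1.83. The control probe sets for the bacterial gene Trpn, which has no mouse counterpart, averaged 1.83 to 2.03 per array. A fall of C1qa, C1qc or Apoe, which lie at this level, could not show on these arrays. Single Trpn probe sets reached 2.30, and Gpnmb, with a control mean of 2.25, lay within their range. So did Clec4n, Ms4a7, Vcan and Cybb of the other groups of genes, with control means of 2.13, 2.17, 2.20 and 2.29.

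Replicates of a group lay far apart for most genes that moved. For 5 of the 7 higher genes (Tgm2, Thbs1, Lyz2, Lyz1 and Adgre1) the SD among the control arrays exceeded the change with the shRNA, and in all 5 the highest control was number 5. Arrays 1 and 2 held the lowest levels of these genes in both groups. Mpeg1 ran otherwise, low in arrays 3 and 4 of both groups. Pair 5 moved least in 6 of the 7 genes, and the mean change of pairs 1 to 4 was 2.45 for Tgm2, 2.04 for Thbs1 and 1.00 for Lyz2, against 0.21, 0.19 and -0.03 in pair 5. The pair differences of Meis1 itself were -1.04, -0.90, -1.23, -1.22 and -1.05.

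**Figure D4:**
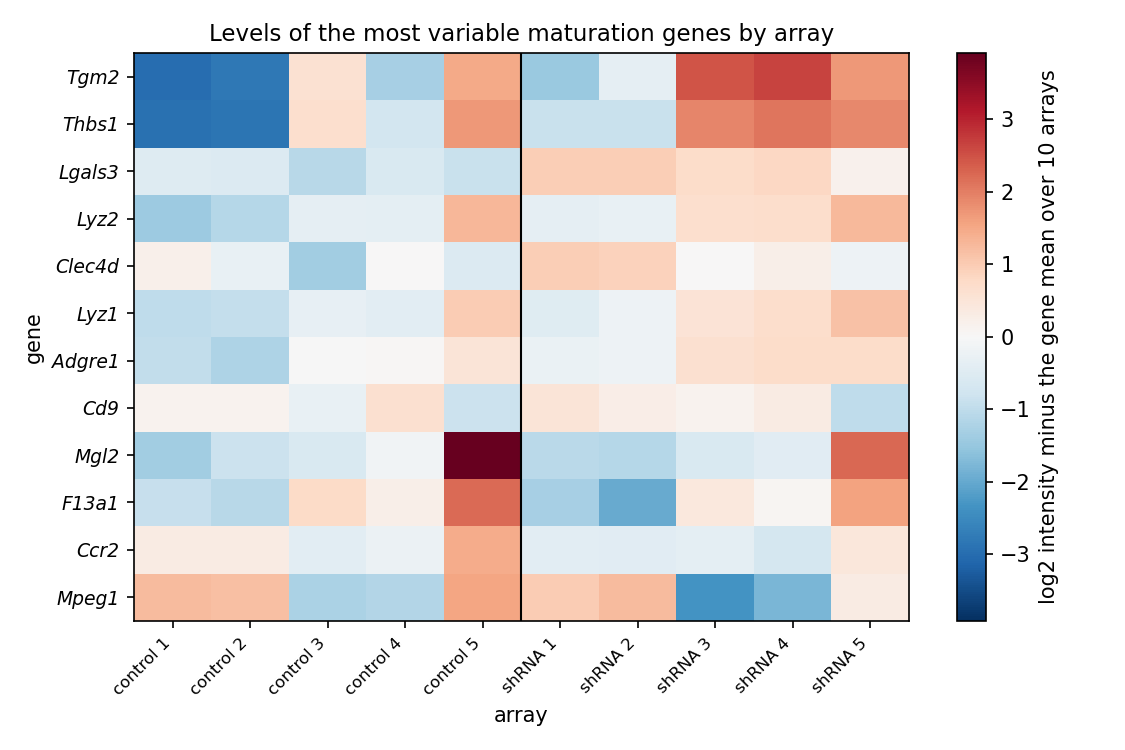
Log2 intensity minus the mean of each gene over the 10 arrays, in colour, for the 12 maturation genes whose SD over all arrays was at least 0.5 (y axis), by array (x axis, controls left of the line). Tgm2, Thbs1, Lyz2, Lyz1 and Adgre1 are below their means in controls 1 and 2 and above them in control 5 and shRNA 3 to 5, F13a1 is highest in control 5, and Mgl2 stands out in control 5 and shRNA 5.

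RNA integrity, read from the 3 prime over 5 prime signal of the control probe sets for Gapdh and actin, moved with the groups. Its log2 value was 0.20 to 0.28 in controls 1 to 4, 0.37 in control 5 and 0.33 to 0.39 with the shRNA, higher with the shRNA in all 5 pairs (exact two-sided sign-flip permutation p = 0.0625, the smallest that 5 pairs allow). The difference was smallest in pair 5 (0.01) and largest in pair 4 (0.19). With the ratio as a covariate beside the block, 0 maturation genes and 2 of all genes passed, with 1173 of all genes at an unadjusted p under 0.05. Since the ratio was higher with the shRNA in all 5 pairs, its part and that of the shRNA cannot be told apart in this fit. Lgals3 was then at 1.3 (limma adjusted p = 0.186) and Clec4d at 0.99, Adgre1 at 0.51, and Lyz2, Lyz1, Tgm2 and Thbs1 at 0.30, 0.25, 0.37 and 0.49. The SE was larger for each of these genes, from 0.11 to 0.21 for Lgals3 and from 0.43 to 0.44 for Tgm2. The genes that lay lowest moved further down, F13a1 to -0.80, Mgl2 to -0.98, Ccr2 to -0.83 and Mpeg1 to -0.79. None of these passed (adjusted p 0.408 to 0.792). Other genes below 0 moved either way, such as Cx3cr1 (to 0.25) and Clec7a (to -0.26).

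Other genes of the same lineage were also examined. Of 62 further measured monocyte and macrophage genes, 5 rose, 0 fell (14 and 0 at an unadjusted p under 0.05) and 57 did not pass, with a median change of 0.08. This list, like those that follow, was chosen with earlier results of these data known. The 5 were 8.06% of it, beside 1.08% of all genes higher. Those that rose were Hmox1, the haem-degrading oxygenase of macrophages (1.76, SE 0.22, adjusted p = 0.00472), Anxa1, an anti-inflammatory annexin (1.06), the integrin Itgal (0.62), Plin2, which coats lipid droplets (0.52), and the invariant chain Cd74 (0.82, adjusted p = 0.0493). Of 25 transcription factors of the lineage, Cebpd (0.61, SE 0.10, adjusted p = 0.0162) and Jun (0.79, SE 0.10, adjusted p = 0.0038) rose (8% of the list) and none fell, against 5 higher and 2 lower at an unadjusted p under 0.05. Spi1, which encodes PU.1 (0.33, adjusted p = 0.128), and Irf8, which directs progenitors to monocytes (-0.27, adjusted p = 0.132), did not pass and had opposite signs. The receptor of the macrophage growth factor, Csf1r, changed by 0.18 (adjusted p = 0.486) at a control log2 level of 3.64.

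Markers of other blood cells were examined beside these values. Of 19 neutrophil genes, Lcn2 rose (1.07, adjusted p = 0.0032) and Elane fell (-0.40, adjusted p = 0.0338), and the summed intensity of the list, 21997 to 39972 in the controls and 19447 to 35162 with the shRNA, was lower with the shRNA in all 5 pairs. That sum is mostly the bright granule genes Mpo, Ctsg, Prtn3 and Elane, and the median change of the list was -0.02, with 2 genes higher and 2 lower at an unadjusted p under 0.05. S100a8, a calcium-binding protein shared by neutrophils and monocytes, was higher in all 5 pairs without passing (1.69, SE 0.41, adjusted p = 0.0628). None of 11 dendritic genes (summed 239 to 390 against 204 to 353) and none of 12 mast cell, basophil and eosinophil genes (79.0 to 152 against 83.1 to 120) passed by limma, with 1 and 2 lower and none higher at an unadjusted p under 0.05. In the erythroid and megakaryocytic list 1 of 11 fell (Tfrc, -0.34, summed 3136 to 3562 against 2539 to 2847), and in the lymphoid list 1 of 11 (Nkg7, -1.65, summed 94.6 to 139 against 72.0 to 81.9). Each was 9.09% of its list, and the neutrophil calls 5.26% in each direction, beside 1.08% of all genes higher and 2.98% lower. At an unadjusted p under 0.05, the erythroid list had 1 higher and 3 lower, and the lymphoid list 0 higher and 1 lower. Most of these markers were dim, with a mean log2 level of at most 5 in 10 of 11 dendritic, 11 of 12 mast cell, basophil and eosinophil, 10 of 11 erythroid and 10 of 11 lymphoid genes, against 9 of 19 neutrophil genes. The part of these cells in the results was not tested. In bulk RNA, more cells of a type and more RNA per cell cannot be told apart.

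The line was checked against 13 markers of myeloid leukaemia progenitors. Mpo, Ctsg, Elane, Cd34, Kit, Ptprc, Spn, Hoxa9 and Hoxa10 were bright (control log2 means of 8.17 to 13.40), whereas Itgam (4.91), Flt3 (4.48) and Fcgr3 (3.01) were low. Kit (-0.78, adjusted p = 0.00158) and Ptprc (-0.35, adjusted p = 0.0379) fell along with Elane and Meis1, while the integrin Itgam (0.45, adjusted p = 0.194) and the Fc receptor Fcgr3 (0.27, adjusted p = 0.204) did not pass.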

How the data were processed

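The authors deposited 1 intensity per probe set and array, made with RMA per the submitters' processing notes. For its version and settings, not given in the sources used here, no value can be stated, and the linear scale was read from the values (1.295 to 32400). They were log2-transformed with no pseudocount. Of 45101 probe sets, 64 controls, 932 with several gene symbols and 9160 with none were left out of the gene tests, and 18193 genes remained. Fold changes from RMA tend to be compressed, but whether those given here are was not tested. The number of arrays limits the precision.

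Groups were compared with limma 3.58.1 (R 4.3.3; lmFit and eBayes, two-sided, sample number as a fixed block, Benjamini-Hochberg over all genes, threshold 0.05). Changes are shRNA minus control. The pairing comes from the labels; deviations of same-numbered arrays from their group means correlated at 0.310 to 0.600 over 11215 probe sets, although control 2 correlated more with shRNA 1 (0.579) than with shRNA 2 (0.462). The script was tested on simulated data. Promoters were aligned with Biopython 1.88. The 33 genes and the other lists were chosen with earlier results of these data known. Values for every array are given for genes past the threshold and those with a change of at least 0.5, and for F13a1 and Mgl2, added after their values were seen. From the other lists up to 3 genes per direction past the threshold were to be named. Cd68's range, Itgal, Plin2, S100a8, Spi1, Irf8 and Csf1r were named after their values were seen. The alternatives were other treatments of the pairs, normalizations, probe set means, a filter on dim genes, other eBayes settings, the RNA integrity covariate and each pair left out.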

Additional observations from a re-analysis of the deposited data

Results flagged for a closer look

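Of 64 groups of 5 values tested, for each gene in each group of arrays, 5 held a value far from the rest. The measure was the gap to the nearest neighbour over the range of the group (critical value 0.71). Chance gives such a gap in about 1 in 20 groups. Of the 5 values, 4 were in pair 5. Mgl2 stood at a log2 level of 8.03 in control 5, with the next control at 3.97, and at 6.37 in shRNA 5, with the next shRNA array at 3.68. Ccr2 was at 4.57 in shRNA 5 and at most 3.76 in the other shRNA arrays. Cd9 was at 3.98 in shRNA 5, where the next lowest was 5.11. Cx3cr1 was at 4.24 in control 4, above 3.94 in the next control.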

How the results depend on the processing

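Leaving out the replicate block left 1 maturation gene higher and 0 lower (500 of all genes), and a random replicate block also 1 and 0 (743 of all genes); Lgals3 was the one gene. Quantile normalization gave 7 and 0, median centring 6 and 2, the mean of probe sets 7 and 1, the filter on a mean log2 level above 5 gave 7 and 1, and trend and robust eBayes 5 and 3. The block with the 3 prime to 5 prime ratio gave 0 and 0, and 2 of all genes. Beside 739 genes in all, 1305 passed with the filter, which tests fewer genes, and 1497 with trend and robust eBayes; the cause of the latter was not tested. The lower share of all calls was 73.5%, 56.0% with quantile normalization and 80.7% with median centring. The filter moved the median change of the maturation genes to 0.66, since it dropped the 21 dim ones. With a pair left out, 1 to 7 genes were higher and 0 to 1 lower, the median change was 0.016 to 0.088, and 243 to 929 of all genes passed.

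Some genes with changes from -0.07 to 0.15 in the reported fit changed sign, none of them past the threshold. With quantile normalization Cd68 was at 0.014, Cx3cr1 at 0.0019, Apoe at -0.018, C1qa at -0.0067, Gpnmb at -0.0033 and Cd36 at -0.00060. With median centring Apoe was at -0.035, C1qa at -0.031, Gpnmb at -0.0092, Trem2 at -0.0039 and Cd36 at -0.0030. The mean of probe sets put Msr1 at -0.032. With the 3 prime to 5 prime ratio Cx3cr1 was at 0.25, Msr1 at -0.047, Apoe at -0.00033, C1qa at -0.17, C1qb at -0.27, C1qc at 0.0024, Cd300lb at -0.55 and Adgre4 at -0.29. With a pair left out the ranges were -0.076 to 0.19 for C1qb, -0.24 to 0.11 for Fn1, -0.26 to 0.029 for Cx3cr1, -0.0085 to 0.080 for Gpnmb, -0.029 to 0.13 for Trem2, -0.0079 to 0.072 for Cd36, -0.11 to 0.072 for C1qc, -0.065 to 0.084 for Apoe, -0.10 to 0.090 for C1qa, -0.022 to 0.32 for Cd300lb, -0.052 to 0.21 for Adgre4 and -0.16 to 0.11 for Cd68. Among these genes, signal at the level of the Trpn controls limits what C1qa, C1qc, Apoe and Gpnmb can show, whereas Cd68 and Cd300lb were bright.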
